A study of Mus musculus with 32 samples.

Results

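The Igkv5 family is a group of closely related variable (V) segments of the mouse immunoglobulin kappa light chain (Igκ) locus. Its members were taken by name, as every row of the deposited repertoire tables that begins with Igkv5-, and these were Igkv5-37, Igkv5-39, Igkv5-43, Igkv5-45 and Igkv5-48, or 5 of the 112 segments counted. The rule uses names and no measured value.

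The rearranged Igκ repertoire was read by sequencing RNA primed from the constant region, a method called VJ-seq, in cells of hybrid mice that carry a C57BL/6 (B6) and a Castaneous (Cast) copy of the locus. The pre-B cells came from bone marrow and were grown on irradiated ST2 stromal feeder cells with interleukin-7 (IL-7), which keeps them dividing as precursors. Clones 3, 4, 8, B52 and E9-3 each descend from 1 cell and were sampled 48 h after IL-7 was removed, and clone 4 was also followed at 12, 24, 36 and 48 h. The sixth library at 48 h, called the pool here, is labelled a cultured pre-B-cell pool, while the study's methods name selected bone marrow cells of a female hybrid mouse as the only other source of RNA and give no time without IL-7 for it, so the state of these cells is uncertain. Since the tables hold Igκ segments only, the labelled cell type could not be checked against its markers.

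Each library is the only one of its condition in its table, and the comparison of a clone with the pool is therefore a comparison of libraries. The 6 libraries at 48 h held between 34291 and 320951 reads assigned to an allele, and the 4 successive libraries of the time course held 1737, 1174, 7092 and 10958. The B6 allele gave 51.2% to 71.8% of the reads of the clones and 57.4% of those of the pool. Intervals are 95% Wilson intervals. They cover counting error only, because the reads were amplified by PCR and carry no molecular identifiers. A count of 0 was taken to allow up to 3 reads.

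In a developing B cell, the RAG recombinase joins 1 V segment of the kappa locus to a J segment by cutting at recombination signal sequences (RSSs), each made of a conserved heptamer and nonamer around a spacer. The V segment chosen encodes most of the variable domain of the light chain, and all further diversity of that chain starts from it. A cell normally ends with a productive rearrangement of 1 allele, and rearrangement on a further segment can replace an earlier one.

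The Igkv5 segments lie in the part of the V cluster nearer to the constant region, on chromosome 6 of the mm10 build (GRCm38), all on the minus strand and all annotated in GENCODE M21 as functional V genes with a V exon of 298 bases. Igkv5-48 (ENSMUSG00000076563.2), the farthest from the constant region, spans chr6:69726573-69727138. It is followed towards the constant region by Igkv5-45 (ENSMUSG00000094094.2, chr6:69775750-69776344), Igkv5-43 (ENSMUSG00000094433.2, chr6:69823355-69823943), Igkv5-39 (ENSMUSG00000076569.3, chr6:69900424-69900977) and Igkv5-37 (ENSMUSG00000076571.2, chr6:69963312-69963873). Igkv5-48 lies 999 kb and Igkv5-37 763 kb from the Cκ exon at chr6:70726435-70726966.

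The RSS is shown because it is the sequence cut during rearrangement. The 28 bases next to each V exon in the B6 reference are given 5′ to 3′ on the strand of the segment, with the heptamer and the nonamer in capitals and the 12-base spacer in lower case.
Igkv5-48 (chr6:69726545-69726572): CACAGTGatgcagaccataGCAAAAATC
Igkv5-45 (chr6:69775722-69775749): CACAGTGatgcagaccataGCAAAAATC
Igkv5-43 (chr6:69823327-69823354): CACAGTGatgcagaccataGCAAAAATC
Igkv5-39 (chr6:69900396-69900423): CACAATGatgcagaccataGCAAAAACC
Igkv5-37 (chr6:69963284-69963311): CACAGTGatgcagaccataGCAAAAACC

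The spacer was the same in all 5 segments, and the whole RSS was the same in Igkv5-48, Igkv5-45 and Igkv5-43. The heptamer CACAGTG stood directly after the V exon in 4 of the 5 members and in 92 of the 111 annotated segments (82.9%), Igkv5-39 being the member without it. The nonamer ACAAAAACC stood 12 bases further in none of the members and in 36 of the 111 segments (32.4%). Only these positions on the strand of the segment were searched, and a match describes the sequence and not its use. The RSSs of the Cast allele were not analysed here.

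Igkv5-43 and Igkv5-45 are near-identical copies, with V exons that in the B6 reference are 99.0% identical and differ at 3 of 298 positions. The Cast copies were not analysed here, so how many bases tell them apart on that allele is not known. Counted from 1 at the 5′ end of the exon, with the base of Igkv5-43 first, the substitutions are C65A, C89T and A105T. The stretch from position 55 to 115 holds all of them and is shown because it is the part of the V exon by which a read can be given to one copy or the other, with the differing bases in capitals.
Igkv5-43 (chr6:69823538-69823598, minus strand): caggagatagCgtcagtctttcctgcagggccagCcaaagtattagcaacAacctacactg
Igkv5-45 (chr6:69775933-69775993, minus strand): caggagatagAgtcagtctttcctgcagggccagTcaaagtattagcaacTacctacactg

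The nearest of the substitutions lies 193 bases from the end of the exon that joins J, and the farthest 233 bases. The other pairs of members were 81.9% to 91.6% identical, and no segment outside the family was more than 68.8% identical to a member. Counts of Igkv5-43 and Igkv5-45 are thus the ones that the alignment could have divided wrongly, and they are given below both separately and summed.

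The family as a whole made up 5.39% of the reads of the pool (5.31 to 5.46). It made up 10.4% in clone 4 (10.2 to 10.7) and 10.5% in clone 8 (10.4 to 10.7), but 4.43% in clone 3 (4.33 to 4.53), 2.87% of clone E9-3 (2.70 to 3.05) and only 2.11% of clone B52 (2.00 to 2.22). Clones 4 and 8 were therefore above the pool, and clones 3, B52 and E9-3 below it, with intervals that did not overlap that of the pool. The second library of clone 4 at 48 h, from the time course, had 15.1% (14.4 to 15.8) beside the 10.4% of the first. In percentage points, this gap is wider than those of clones 3, B52 and E9-3 from the pool, but as a ratio it is wider than that of clone 3 only. Intervals that do not overlap thus do not by themselves separate the clones. Without its most abundant segment, which was Igkv5-48 itself, clone 4 had 6.23%. In clones B52 and E9-3 another segment, Igkv3-7, alone held 20.1% and 12.5% of the reads. With the most abundant segment of each library left out, the family stood at 5.66% in the pool, against 2.64% for clone B52 and 3.28% for clone E9-3, so both clones remained below the pool.

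The alleles did not share this order. On the B6 allele the family held 10.3% of the reads of clone 4, 7.63% of clone 8, 5.86% of clone 3, 4.42% of clone E9-3, 2.12% of clone B52 and 4.85% of the pool. On the Cast allele it held 15.4% of the reads of clone 8, 10.9% of clone 4, 2.93% of clone 3, 2.08% of clone B52, 1.08% of clone E9-3 and 6.11% of the pool. Clone 8 thus used the family more on Cast, clones 3 and E9-3 more on B6, and clones 4 and B52 to a similar extent on both, though the second library of clone 4 had 16.0% on B6 (15.2 to 16.8) and 12.0% on Cast (10.8 to 13.3). Correspondingly, the B6 share of the reads of the family was 82.6% in clone E9-3 (80.1 to 84.9) against 52.8% for the rest of that library, and 45.5% in clone 8 (44.7 to 46.4) against 64.9%. In clone 4 it was 70.5% against 71.9% for the rest in the first library and 81.5% against 75.9% in the second, and in clone B52 66.2% against 65.8%.

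**Figure D1:**
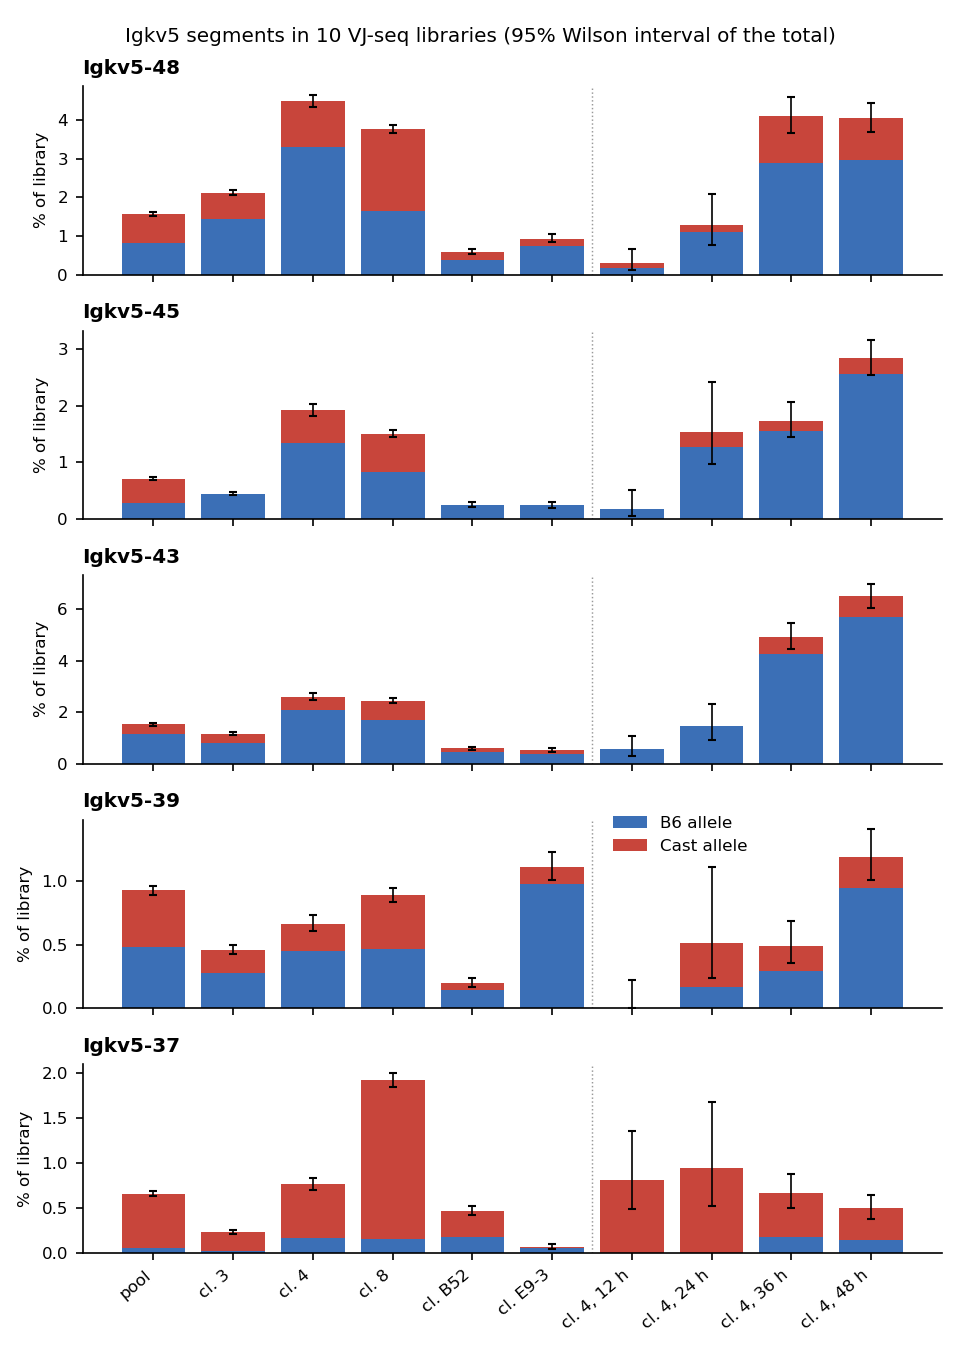
Percent of all reads of the library (vertical axis, linear, a separate scale for each segment) taken by each Igkv5 segment in the pool, the 5 clones at 48 h and, right of the dotted line, clone 4 at 4 times. Blue and red are the parts read on the B6 and Cast alleles, and the black bars are 95% Wilson intervals of the total. Igkv5-48 reaches 4.49% in clone 4, Igkv5-37 is mostly on Cast outside clone E9-3, and Igkv5-45 has almost no Cast part in clones 3, B52 and E9-3.

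Igkv5-48 was the member with the most reads in the pool, in clones 3 and 8 and in the first library of clone 4. It took 1.57% of the pool (1.52 to 1.61), 2.12% of clone 3, 4.49% of clone 4 (4.33 to 4.65), 3.76% of clone 8, 0.595% of clone B52 (0.540 to 0.655) and 0.933% of clone E9-3. It was the most frequent of all segments in this library of clone 4, while in the second, with 4.05%, it came after Igkv19-93 (8.94%) and Igkv5-43 (6.50%). Against the pool, its percent was 2.87-fold higher in clone 4 and 2.40-fold higher in clone 8, while in clone B52 it fell by 1.40 on the log2 scale, and the other clones stayed within 2-fold.

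Igkv5-43 was second in the pool with 1.52% (1.48 to 1.56). It took 1.16% of clone 3, 2.60% of clone 4, 2.45% of clone 8, 0.596% of clone B52 and 0.519% of clone E9-3. The clones fell in the same high and low groups as for the whole family, and the decreases in clones B52 (log2 change -1.35) and E9-3 (-1.55) passed 2-fold. Its near-copy Igkv5-45 was less frequent, with 0.714% of the pool (0.685 to 0.744), 0.450% of clone 3, 1.92% of clone 4, 1.51% of clone 8, 0.256% of clone B52 and 0.242% of clone E9-3. It was at least 2-fold above the pool in clones 4 and 8 and at least 2-fold below it in clones B52 and E9-3. On B6 alone the log2 changes were 1.94, 1.45, -0.33 and -0.12 in clones 4, 8, B52 and E9-3. On Cast alone they were 0.99, 0.83, -6.32 and -5.75, with counts of 0 set to 3 reads. Summed as 1 segment, the pair took 2.23% of the pool, 1.61% of clone 3, 4.52% of clone 4 and 3.95% of clone 8. It took 0.852% of clone B52 and 0.761% of clone E9-3. Against the pool the sum passed 2-fold in clones 4 (log2 change 1.02), B52 (-1.39) and E9-3 (-1.55).

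Igkv5-39 departed from the other members in clone E9-3 and in the first library of clone 4, though neither difference from the pool passed 2-fold. It took 0.929% of the pool (0.897 to 0.963), 0.461% of clone 3, 0.666% of clone 4, 0.893% of clone 8, 0.201% of clone B52 and 1.11% of clone E9-3 (1.01 to 1.23). Clone E9-3, below the pool for the other 4 members, was thus the highest in this table for Igkv5-39, which made up 38.8% of the reads of the family there, and clone 4, above the pool for the others, lay below it. The second library of clone 4 turned this order, with 1.20% for Igkv5-39 (1.01 to 1.42), above the pool and clone E9-3, and 0.493% for Igkv5-37, below the pool. Only the decreases in clone 3 (log2 change -1.01) and clone B52 (-2.21) passed 2-fold. That in clone 3 did not pass without the most abundant segment (-0.97) or against the other 4 clones (-0.61). It did not pass on the B6 allele alone either (-0.66), while on Cast alone it did (-1.45).

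Igkv5-37, the member nearest to the constant region, varied most. It took 0.656% of the pool (0.629 to 0.685), 0.230% of clone 3, 0.764% of clone 4, 1.92% of clone 8 (1.84 to 2.00), 0.461% of clone B52 and 0.0642% of clone E9-3 (0.0424 to 0.0971). Clone 8 was 2.92-fold above the pool, and the percent in clone E9-3, where 22 reads were counted, fell by 3.36 on the log2 scale. The highest clone stood 29.9-fold above the lowest for Igkv5-37, and 5.01-fold to 7.92-fold for the other members. Over the 104 segments with enough reads, the median of this ratio was 5.81, with quartiles of 3.32 and 11.5. The 29.9-fold of Igkv5-37 rests on the 22 reads of clone E9-3, and the next lowest clone was clone 3 with 0.230%.

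Each segment was tested in each clone against the pool by Fisher's exact test on reads (two-sided, Benjamini-Hochberg adjustment over all segments of the clone), and was called when the adjusted p was under 0.05 and the percent of the library at least 2-fold apart. In clone 3, 2 of the 5 members were called, both lower, against 51.9% of all segments tested. In clone 4, 2 were called, both higher, against a background of 47.1%, and in clone 8, 3 were called, all higher, against 45.6%. In clone B52, 4 were called, all lower, against 70.2%, and in clone E9-3, 3 were called, all lower, against 63.7%. The called share of the members was thus close to that of the locus as a whole in each clone, while the median log2 change of the members was 1.08 in clone 8 and -1.55 in clone E9-3, beside 0.02 and -0.40 over all segments tested. Of the 25 pairs of a clone and a member, 14 were called, 5 of them higher and 9 lower, and 2 of these passed when a 3-fold difference was asked for. Between the 2 libraries of clone 4 at 48 h, the percent of the library varied 33.0 times as much as counting error allows, over 103 segments. With counts divided by this factor 12 of the 14 were still called, and the decreases of Igkv5-37 and Igkv5-45 in clone E9-3 were not (adjusted p = 0.0524 and 0.255, Fisher's exact test). The factor comes from libraries of 64672 and 10958 reads, and whether it suits the deeper pool, with 320951, was not tested. Igkv5-43 had a log2 change of -1.32 between those libraries. The kept changes of Igkv5-39 in clone 3 (-1.01) and of Igkv5-45 (1.08) and Igkv5-48 (1.26) in clone 8 were smaller in size, and the others were larger. The shares of all segments called at 3-fold or with divided counts are not given here.

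The B6 share of the reads of a segment says how its use was divided between the alleles. For Igkv5-48 it was 51.9% in the pool (50.6 to 53.3). Clone 8 had 43.6% (42.2 to 45.1) and clone E9-3 had 79.1% (74.3 to 83.2), with 61.3% for clone B52, 68.0% for clone 3 and 73.7% for clone 4. Clone 8 was the only clone below the pool, and the only one in which this segment was read more often on Cast. Igkv5-43 varied least, from 68.5% in clone E9-3 (61.4 to 74.9) to 80.3% in clone 4 (78.3 to 82.1), with 76.0% in the pool. It was on the B6 side in every one of the 6 libraries, with 70.2% in clone 3, 69.1% in clone 8 and 76.7% in clone B52.

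Igkv5-39 was close to even in the pool, at 52.1% (50.3 to 53.9), and in clone 8, at 52.5% (49.5 to 55.5). Clone 3 had 59.4%, clone 4 had 67.3%, clone B52 had 69.8% and clone E9-3 had 88.2% (84.6 to 91.1). In clone E9-3 this segment thus came mainly from B6, with 337 B6 and 45 Cast reads. On the Cast allele alone it took 0.283% of the reads of clone E9-3 and 1.05% of those of the pool, while on B6 it took 1.83% against 0.843%. Over both alleles it stood 1.20-fold above the pool in this clone, which was not called.

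Igkv5-37 leaned to Cast in the pool and in every clone but E9-3. Its B6 share was 7.45% in the pool (6.41 to 8.65), 8.19% for clone 8 and 10.2% for clone 3. Clone 4 had 21.7% (18.3 to 25.5), clone B52 had 38.6% (33.4 to 44.0) and clone E9-3 had 86.4% (66.7 to 95.3). The last of these rests on 19 B6 and 3 Cast reads. In clone B52 the percent of the Cast reads, 0.829% against 1.43% in the pool, was lower, while on B6 it was higher, 0.270% against 0.0852%. Every clone lay above the pool for the B6 share, though the differences in clones 3 and 8, of 2.78 and 0.74 percentage points, did not pass Fisher's exact test (adjusted p = 0.109 and 0.507).

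**Figure D2:**
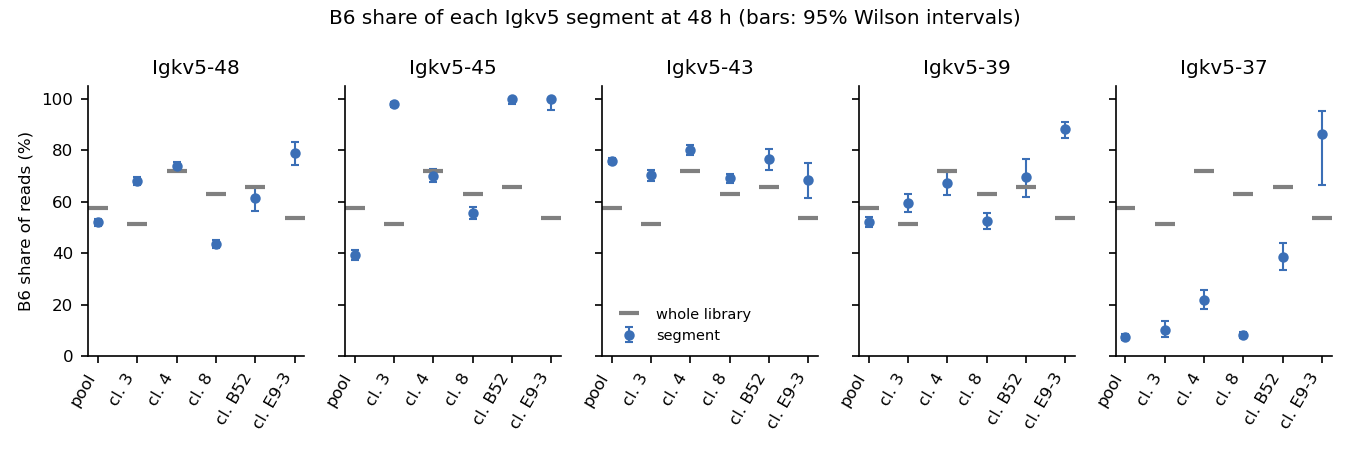
B6 share of the reads of each Igkv5 segment (percent, vertical axis) in the pool and the 5 clones at 48 h, with 95% Wilson intervals, and the B6 share of the whole library as a grey line. Igkv5-43 stays between 68.5% and 80.3%, Igkv5-45 is at 98.0% to 100% in clones 3, B52 and E9-3, and Igkv5-37 lies far below the library except in clone E9-3.

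Igkv5-45 was read on both alleles in some libraries and almost only on B6 in others. It gave 901 B6 and 1390 Cast reads in the pool, 870 and 370 in clone 4, and 997 and 798 in clone 8, or B6 shares of 39.3% (37.3 to 41.3), 70.2% and 55.5%. In clone 3 it gave 731 B6 and 15 Cast reads (98.0% B6). In clone B52 it gave 177 B6 and 0 Cast reads, and in clone E9-3 83 and 0, which allows a Cast share of up to 1.69% and 3.61%. Among the 92 segments with at least 10 reads in all 6 libraries, it was the only one with at most 5% of its reads on Cast in clones 3, B52 and E9-3 and at least 20% on Cast in the pool and clones 4 and 8, a pattern that was defined after the values were seen and that rests on the first library of clone 4. In the second library of that clone at 48 h the segment gave 280 B6 and 31 Cast reads (90.03% B6), and at 36 h 110 and 13 (89.4% B6), which would not meet the limit of 20%. The mirror pattern, with few Cast reads in the pool and clones 4 and 8, was also found in 1 segment, Igkv4-73.

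The division of reads between the near-copies differed in the same way. Of the Cast reads of Igkv5-43 and Igkv5-45 together, Igkv5-45 held 54.3% in the pool (52.3 to 56.2), 52.7% in clone 4 (upper end 56.4) and 47.0% in clone 8 (44.6 to 49.3), but 2.55% in clone 3 (1.55 to 4.16), 0 of 96 reads in clone B52 (which allows up to 3.13%) and 0 of 56 in clone E9-3 (up to 5.36%). Of the B6 reads of the pair, it held 19.6% in the pool (18.4 to 20.7) and 33.1% to 40.5% in the 5 clones. With the first library of clone 4, the clones thus lay in a narrow range on B6 and in separate groups on Cast, which its second library did not keep (below). Igkv5-43 did keep Cast reads where Igkv5-45 had few or none, namely 574 for clone 3, 96 for clone B52 and 56 for clone E9-3, although clone 3 also kept 15 reads of Igkv5-45.

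In the second library of clone 4 at 48 h, from the time course, Igkv5-45 held 25.6% of the Cast reads of the pair (18.7 to 34.1), below the 52.7% of the first, and 31.0% of the B6 reads (28.1 to 34.1) against 39.2% (37.2 to 41.2). These intervals do not overlap, so the division of the pair also differed between libraries of the same clone. Read lengths of more than one kind are given in the methods but not assigned to libraries, and whether the read length, the alignment or the cells set this division was not tested. Summed as a single segment, the pair had a B6 share of 64.3% in the pool (63.1 to 65.4) and 63.9% in clone 8. Clone 4 had 76.0%, clone 3 had 78.0%, clone E9-3 had 78.5% and clone B52 had 83.7% (80.5 to 86.5). The sum was thus on the B6 side in all 6 libraries, above the pool in 4 clones and within the interval of the pool in clone 8, while Igkv5-43 alone lay below the pool in clones 3 and E9-3.

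**Figure D3:**
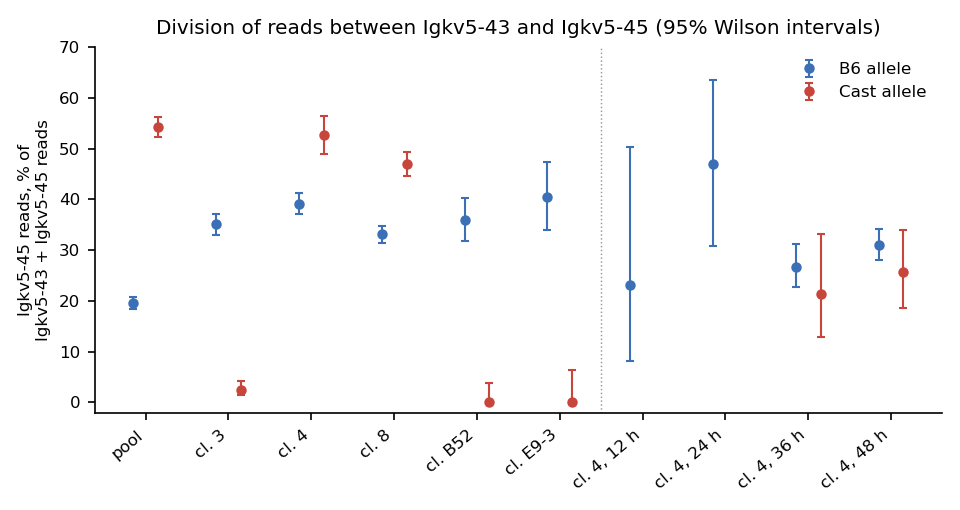
Igkv5-45 reads as a percent of the reads of Igkv5-43 and Igkv5-45 together (vertical axis), on the B6 allele (blue) and the Cast allele (red), in each library with at least 10 reads of the pair on that allele, with 95% Wilson intervals. Left of the dotted line, Cast values of the pool and clones 4 and 8 lie between 47.0% and 54.3% and those of clones 3, B52 and E9-3 at 2.55% or 0, while on B6 the clones lie between 33.1% and 40.5%. Right of it, in the time course of clone 4, Cast stands at 21.3% and 25.6% at 36 h and 48 h.

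The B6 shares were compared with those of the pool by Fisher's exact test (two-sided, adjusted over all segments with at least 10 reads in both libraries). In clone 3, 4 of the 5 members were called, against 70.7% of all segments tested. In clone 4, 5 of 5 were called, against 56%, and in clone 8, 3 of 5, against 60.6%. In clone B52, 4 of 5 were called, against 64.5%, and in clone E9-3, 5 of 5, against 62.8%. In all, 21 of the 25 differences were called, 17 of them towards B6 and 4 towards Cast. The latter were Igkv5-43 in clones 3, 8 and E9-3 and Igkv5-48 in clone 8. Only in clones 4 and E9-3 was the called share of the members well above that of the locus, and 5 members are too few to set them apart. The median difference of the members was 36.1 percentage points for clone E9-3, 17.7 for clone B52, 15.2 for clone 4, 7.34 for clone 3 and 0.41 for clone 8, while over all segments tested it lay between -0.06 and 0.70. Of all segments, 31.2% were over 80% on the same allele in all 5 clones, so this median is no background for segments read on both alleles. In clone 4 the whole library stood at 71.8% B6 against 57.4% in the pool, and the family, at 70.5%, was close to the rest of that library, at 71.9%. When the alleles of each clone were scaled to the ratio of the pool, the difference turned to -7.63 points for Igkv5-43 in clone 4, and those of Igkv5-43 in clone B52 and Igkv5-39 in clone 8, which had not been called, to -6.27 and -5.30. The same scaling took away the calls of Igkv5-39 in clone 4 (from 15.2 to 0.06 points), Igkv5-48 in clone B52 (from 9.36 to 0.68) and Igkv5-43 in clones 3 and E9-3, and lowered the differences in clone 4 from 21.8 to 7.84 points for Igkv5-48, from 30.8 to 16.2 for Igkv5-45 and from 14.2 to 5.38 for Igkv5-37. It also raised that of Igkv5-37 in clone 3 to 5.41 points, which then passed (adjusted p = 0.00193, Fisher's exact test).

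These tests count each read as independent, which the libraries of clone 4 do not bear out. Between them, B6 shares varied 15.4 times as much as counting error allows, over 84 segments. With counts divided by this factor, 8 of the 21 differences were still called, with 3 of the others left with too few reads for a test. The share of all segments called under this setting is not given here. The 8 were Igkv5-45 in clones 3, 4, 8 and B52, Igkv5-48 in clones 3 and 4, Igkv5-37 in clone B52 and Igkv5-39 in clone E9-3. The factor comes from libraries of 64672 and 10958 reads, and whether it suits the deeper pool, with 320951, was not tested. Igkv5-45 differed by -19.9 points between those libraries. The kept differences of Igkv5-45 in clone 8 (16.2 points) and Igkv5-48 in clone 3 (16.1) were smaller than this in size, and the others were larger. A kept call thus does not by itself exceed the variation between libraries.

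By the criterion of over 80% of reads on 1 allele, 1 of the 5 members was skewed in the pool, Igkv5-37 towards Cast, against 44.6% of all segments that reached 10 reads. Across the 5 clones, 0 of the 5 members were skewed to the same allele, against 31.2% of all segments. Igkv5-37 was skewed to Cast in clones 3 and 8 and to B6 in clone E9-3, Igkv5-45 to B6 in clones 3, B52 and E9-3, Igkv5-39 to B6 in clone E9-3, and Igkv5-43 to B6 in clone 4. In the second library of clone 4 at 48 h, Igkv5-45 was also over 80% on B6 (90.03%). Igkv5-48 was skewed in no clone. The family thus held no segment with a fixed allele across these clones.

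Between the libraries of clone 4 at 48 h, the B6 share differed in 3 of the 5 members, against 34.5% of all segments, each of them with the lower value in the first library. Igkv5-45 stood at 70.2% in the first library and 90.03% in that of the time course, Igkv5-43 at 80.3% and 87.4%, and Igkv5-39 at 67.3% and 79.4%. The whole libraries stood at 71.8% and 76.7%, and after scaling of the alleles to the same ratio the differences of Igkv5-43 and Igkv5-39 no longer passed (adjusted p = 0.100 and 0.277, Fisher's exact test), while that of Igkv5-48 did (adjusted p = 0.0389). In percent of the library, 1 of 5 members differed at least 2-fold, against 25.2% of all segments, namely Igkv5-43 with 2.60% and 6.50%. This gives the size of difference that libraries of 1 clone can show without a difference in clone or time.

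In the time course of clone 4, the family stood at 1.84% of the library at 12 h (1.31 to 2.59), and then at 5.71% (4.52 to 7.18), 11.9% (11.2 to 12.7) and 15.1% (14.4 to 15.8) at the later times. With each allele scaled to its total, the 12 h value was 3.47%. The early libraries were dominated by Igkv19-93, which held 59.0% of the reads at 12 h and 31.9%, 14.9% and 8.94% thereafter. With this segment left out of the total, the family still stood at 4.49% (3.20 to 6.27), 8.39% (6.66 to 10.5), 14.0% (13.2 to 14.9) and 16.6% (15.8 to 17.3), each time with a higher value than before within this series of libraries. The first library of clone 4 at 48 h had 10.4%, or 10.9% without Igkv19-93, which is below the 36 h values, so the last step depends on which library stands for 48 h.

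The members did not follow this course alike. Igkv5-43 went from 10 reads at 12 h to 17, 349 and 712, or 0.576%, 1.45%, 4.92% and 6.50% of the library. Igkv5-48 gave 5, 15, 291 and 444 reads, or 0.288%, 1.28%, 4.10% and 4.05%, so that its values at 36 h and 48 h were not told apart (adjusted p = 1, Fisher's exact test). Igkv5-45 gave 3, 18, 123 and 311 reads, or 0.173%, 1.53%, 1.73% and 2.84%. Igkv5-39 had 0 reads at 12 h, where 3 reads would be 0.173%, and then 6, 35 and 131 reads, or 0.511%, 0.494% and 1.20%.

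Igkv5-37 did not share the increase. It gave 14, 11, 47 and 54 reads at the 4 times, or 0.806% (0.481 to 1.35), 0.937% (0.524 to 1.67), 0.663% (0.499 to 0.880) and 0.493% (0.378 to 0.642). At 12 h it was the most frequent member, with 43.8% of the 32 reads of the family, and at 48 h the least frequent, with 3.27%. In the first library of clone 4 at 48 h it held 7.32% of the family, ahead of Igkv5-39 with 6.38%, and against that library its log2 change at 12 h was 0.08 in place of 0.71. Its difference between 12 h and 48 h did not pass Fisher's exact test in percent of the whole library (adjusted p = 0.143). With Igkv19-93 left out it did, at log2 changes of 1.86 at 12 h and 1.35 at 24 h relative to 48 h (adjusted p = 0.000531 and 0.0321, Fisher's exact test). These values rest on 14 and 11 reads. All tests of the time course count each read as independent, and dividing the counts by the excess variation was not tried for them. A passed test here thus does not separate a change with time from variation between libraries.

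**Figure D4:**
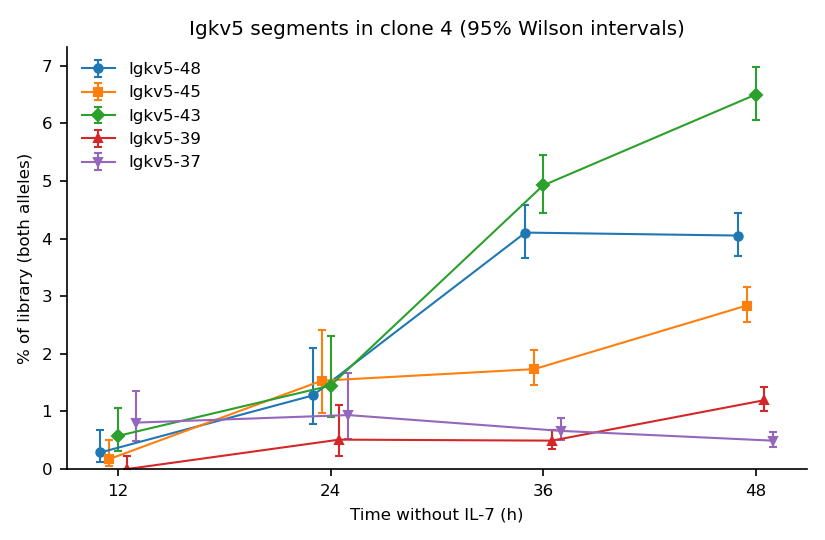
Percent of the library taken by each Igkv5 segment (vertical axis, both alleles) against the time without IL-7 (hours, horizontal axis, points offset sideways for legibility) in clone 4, with 95% Wilson intervals and 1 library per time. Igkv5-43 and Igkv5-48 reach 6.50% and 4.05%, while Igkv5-37 stays under 1% throughout.

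By Fisher's exact test against 48 h with a 2-fold minimum, 4 of the 5 members were lower at 12 h, all but Igkv5-37, against 54.8% of all segments called. At 24 h, 2 members were called, against 27.4%, namely Igkv5-48 and Igkv5-43, and at 36 h 1 member, Igkv5-39, against 10.2%. When the first library of clone 4, the deeper of those at 48 h, served as the reference, the calls of Igkv5-43 at 24 h and Igkv5-39 at 36 h were lost. Igkv5-43 at 36 h, at 4.92%, then stood above the 2.60% at 48 h, with a log2 change of 0.92 in place of -0.40. With 1174 and 1737 reads at the early times, changes of the rarer members were not detectable at this depth unless large.

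Early in the time course, the reads of Igkv5-37 and of Igkv5-43 were each divided unevenly by allele. At 12 h Igkv5-37 was read 14 times on Cast and 0 times on B6, at 24 h 11 and 0 times, at 36 h 35 and 12 times, and at 48 h 39 and 15 times. Igkv5-43 gave 0 Cast and 10 B6 reads at 12 h, 0 and 17 at 24 h, 48 and 301 at 36 h, and 90 and 622 at 48 h. At the 2 early times, then, Igkv5-37 was seen on Cast alone and Igkv5-43 on B6 alone, and both were seen on the other allele from 36 h. These early counts are small. A count of 0 allows up to 21.4% of the Igkv5-37 reads at 12 h and 27.3% at 24 h to come from B6, beside measured shares of 25.5% and 27.8% later, and up to 30.0% and 17.6% of those of Igkv5-43 to come from Cast. At 12 h Igkv5-37 alone made up 5.11% of the 274 Cast reads of the library, and 1.53% of the Cast reads at 48 h. The B6 share of the whole library went from 84.2% at 12 h to 76.7% at 48 h, while that of the family went from 50.0% (33.6 to 66.4) through 70.1% and 76.8% to 81.5% (79.5 to 83.3). In the first library of clone 4 at 48 h it was 70.5% (69.4 to 71.5), so the last steps depend on the library used.

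The members lie among segments of other families. Between positions 36 and 49 of the locus, by the number in the name, the tables hold 7 other segments. Igkv12-46, which lies between Igkv5-48 and Igkv5-45, took 3.87% of the pool and 0.775% to 2.18% of the clones, so that unlike Igkv5-48 it was below the pool in each clone, with B6 shares of 31.3% in the pool and 35.3% to 54.3% in the clones. Igkv12-41 took 1.38% of the pool and 0.395% to 1.97% of the clones, with B6 shares of 37.0% and 39.3% to 65.5%. Igkv12-38, between Igkv5-39 and Igkv5-37, took 0.428% of the pool and 0.198% to 3.34% of the clones, and its B6 share ran from 1.46% to 89.0% in the clones with 24.7% in the pool.

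Of the neighbours, 2 were read almost only on the same allele in all 6 libraries. Igkv12-44, between Igkv5-45 and Igkv5-43, had B6 shares of 99.9% to 100% in the clones and 100% in the pool, and took 1.22% to 2.01% of the clones. Igkv12-40 had a B6 share of 0 in the pool and in every clone, and took 0.783% of the pool and 0.137% to 1.20% of the clones. Igkv18-36, next to Igkv5-37, had a B6 share of 0 in the pool, where it took 0.0894%, and of 30.4% to 51.2% in the clones, and Igkv12-47 had 0 reads. Neighbours of the Igkv5 members thus included segments read almost only from 1 allele, while every member gave reads on both alleles in the pool and clones 3, 4 and 8.

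The segments outside the family with the pattern most like each member over the 6 libraries were found by the mean absolute difference of log2(percent + 0.01), each centred on its own mean. Igkv13-84 was most like Igkv5-39, with a mean difference of 0.16, beside a median of 0.85 over all segments outside the family. Igkv8-28 was most like both Igkv5-48 (0.28) and Igkv5-43 (0.33). For Igkv5-45 it was Igkv2-112 (0.36) and for Igkv5-37 Igkv4-86 (0.50), the least close of these matches. None of these segments lies between positions 36 and 49, and 6 libraries are too few to give this likeness more weight than a description.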

How the data were processed

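The values used are read counts for each Vκ segment and allele, deposited by the authors without normalization in a table of the pool and 5 clones and a table of the time course of clone 4. Per the labels and the study's methods, RNA was reverse transcribed from a Cκ primer and amplified by ligation-mediated PCR, and the reads were trimmed (Trim Galore), aligned (Bowtie2) to an mm10 assembly that joined the B6 and Cast sequences and counted with HTSeq. Versions are not given in the sources used here. The ATAC-seq and nuclear RNA samples were not analysed here.

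Percents of the library, B6 shares, 95% Wilson intervals and Fisher's exact tests were obtained in Python 3.11.15 (pandas 2.3.3, SciPy 1.17.1, NumPy 2.4.6). Biopython 1.88 was used for identities and matplotlib 3.10.9 for figures. B6 shares were tested over segments with at least 10 reads in both libraries, and percents over segments with at least 10 reads in their sum, with a library at 0 set to 3 reads. The tests were tested on simulated libraries drawn with counting error alone, which does not cover the excess variation of real libraries. Between the 2 real libraries of clone 4 at 48 h, the same tests called 34.5% of segments in B6 share and 25.2% in percent of the library. No model with a dispersion was fitted, since within a table no condition had a second library, and only clone 4 at 48 h had one across the tables.

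Positions and sequences were read from GRCm38 with GENCODE M21, in which 111 of 112 segments were found by name. All 5 members were named, with the segments between positions 36 and 49 next to a member in percent of the pool, the segment most alike, and Igkv19-93 where it was left out. Igkv3-7, Igkv4-73, Igkv12-47 and Igkv18-36 were picked for naming once their values were known. The family was picked for description, and its members, lists and tests set, with earlier results of these data known, although the rule for members uses names alone. Alternatives varied the read minimum, fold, total, allele, reference and excess variation. Summing Igkv5-43 and Igkv5-45 was added after seeing the data.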

Additional observations from a re-analysis of the deposited data

Results flagged for a closer look

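In 2 members, clones were called on opposite sides of the pool in their B6 share. Between 56% and 70.7% of all segments tested were called in each clone. The share of all segments called on opposite sides was not counted, so this count is not set apart from that of the locus. Igkv5-48 stood at 79.1% in clone E9-3 and 43.6% in clone 8, a difference of 35.4 percentage points, with 4 clones above the pool and 1 below. Igkv5-43 stood at 80.3% in clone 4 and 68.5% in clone E9-3, a difference of 11.7 percentage points, with 1 clone called above the pool and 3 below. These clones were picked as the extremes, each with 1 library, and the differences between them were not tested. With counts divided by the excess variation, Igkv5-43 was called in no clone. Igkv5-48 was then no longer called in clone 8 or in clone E9-3 (adjusted p = 0.109 and 0.0521, Fisher's exact test). With alleles scaled to the ratio of the pool, the difference of Igkv5-43 in clone 4 from the pool turned to -7.63 points. Its calls in clones 3 (-0.79 points) and E9-3 (-4.14) were then lost, and that in clone 8 (-12.0) was kept. With Igkv5-43 and Igkv5-45 summed, the pair stood above the pool in clones 3 (13.7 points), 4 (11.7) and E9-3 (14.3). In clone 8 the pair was not called (-0.35 points). Between the libraries of clone 4 at 48 h, Igkv5-45 differed by more than the clones did in Igkv5-43 (-19.9 points).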

How the results depend on the processing

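No paired analysis was possible because each VJ-seq condition has 1 library in its table, and the replicate numbers of the labels belong to samples that were not analysed here. Of 385 values of the members under an alternative, 289 kept their direction and call, 49 lost the call, 22 gained one and 25 changed direction, 12 of these without a call under either setting. The 21 called B6 shares became 8 with counts divided by the excess variation. The 14 calls in percent of the library became 2 at 3-fold, and the 1 call between the libraries of clone 4 became 3 at 1.5-fold and 0 at 3-fold. Shares of all segments called under these settings are not given here. The family in the pool went from 5.39% to 5.66% without the most abundant segment and to 5.48% with each allele scaled to its total, and 12 of 18 such values of the other libraries moved, the clone 4 value at 48 h to 6.23% without its most abundant segment and the 12 h value from 1.84% to 4.49% without it and to 3.47% with each allele scaled. With the other 4 clones as the reference, the difference in B6 share became -4.20 points for Igkv5-39 and -3.75 for Igkv5-37 in clone 3 and -0.81 for Igkv5-45 in clone 4, and in clone 8 -27.3 for Igkv5-45, -16.2 for Igkv5-39 and -15.5 for Igkv5-37, and log2 changes became -0.41 for Igkv5-48 in clone 3, 0.14 for Igkv5-39 and -0.019 for Igkv5-37 in clone 4, and 0.80 for Igkv5-39 in clone 8. With alleles scaled to the ratio of the pool, it became -7.63 for Igkv5-43 in clone 4, -5.30 for Igkv5-39 and -0.81 for Igkv5-37 in clone 8 and -6.27 for Igkv5-43 in clone B52. With Igkv5-43 and Igkv5-45 summed, the pair stood 13.7 points above the pool in clone 3 and 14.3 in clone E9-3, where Igkv5-43 alone stood below it. On the B6 allele only, the log2 change of Igkv5-37 became 1.67 in clone B52 and 0.28 in clone E9-3 and that of Igkv5-45 in clone 3 0.82, and on Cast only those of Igkv5-39 became -1.88 in clone E9-3 and 0.13 in clone 8 and that of Igkv5-48 in clone 3 -0.35. With the deeper 48 h library as the reference, the log2 changes at 36 h became 0.92 for Igkv5-43, -0.13 for Igkv5-48 and -0.20 for Igkv5-37. The cause of these changes was not tested. Depth limits the time course most, where 3 reads are 0.173%, 0.256%, 0.0423% and 0.0274% of the successive libraries, and among the 6 other libraries clone E9-3, where they are 0.00875%.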
